A study of Mus musculus with 4 samples.

Results

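The genes described here make cholesterol from acetyl-CoA, control the transcription factor SREBP2 that switches many of them on, or move sterols between membranes and out of the cell. They were taken from a list of 29 gene symbols plus *Sc4mol*, the array's name for the gene that RefSeq calls *Msmo1*. Every probe whose gene name was on this list was used, which gave 30 genes with 44 probes among the 30175 gene names and 39429 probes of the array. The list does not hold every gene of the pathway. Each gene was represented by its brightest probe, the one with the highest mean log2 signal over the arrays. All 29 members other than *Abcg1* were well above background on all 4 arrays, and *Abcg1* was on none.

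Cells build the sterol ring in a long chain of steps from acetyl-CoA through mevalonate to farnesyl diphosphate, then through squalene and lanosterol to cholesterol. When sterols in the endoplasmic reticulum are scarce, SCAP escorts SREBP2 to the Golgi, where proteases release the part that enters the nucleus and binds sterol regulatory elements. INSIG proteins hold SCAP back when sterols are plentiful. LXR, a nuclear receptor that senses oxysterols, works on the other side and favours efflux through the ABC transporters.

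RNA came from NIH-3T3:Per2-Luc cells, a mouse fibroblast line carrying a luciferase driven by the *Per2* promoter. For 3 of the conditions the cells received a cOS-pulse, a short exposure to critical oxidative stress in the form of 5 mM H2O2 for 10 min, and RNA was taken 4 h, 20 h or 32 h afterwards. The control had 0 mM H2O2 and a change to fresh medium, and its label places it at 4 h. Each condition was measured on 1 one-color array, all on 1 slide.

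With 1 array per condition there was no replicate, so nothing was tested and p-values are absent. The number of arrays limits the precision. All 3 time points were compared with the same control array, so these comparisons share its error, and at 20 h and 32 h the effect of the cOS-pulse cannot be told apart from that of the hours since the medium was changed. A level below is the signal of a probe divided by the 75th percentile of its array. It can be followed across arrays but cannot be set against the level of another gene, because probes differ in brightness. A log2 ratio compares the level of 1 gene on 2 arrays, and the ± value after it is the error that the scanner software gives for the spots, between 0.20 and 0.21 for every detected member, which does not cover differences between cultures. A gene was counted as higher or lower when the ratio was at least 2-fold. Since whole cultures were measured, fewer cells with an RNA and less of that RNA per cell cannot be told apart.

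Between 52.7% and 59.1% of the probes were well above background on each array, and no spot was saturated. The lowest level of a detected member was 0.334, for *Mvd* at 4 h, while the negative control spots had median levels between 0.00677 and 0.0094. All 10 fibroblast markers were detected on each array, with a summed level between 759 and 852. Of these markers *Thy1* was at 0.382-fold, *Col1a1* at 0.481-fold and *Col3a1* at 0.494-fold of the control at 20 h and *Pdgfrb* at 0.391-fold at 4 h, and their part in the results was not tested. Of 5 epithelial markers only *Krt8* was detected, with a summed level of 0.586 in the control, 1.27 at 4 h, 0.753 at 20 h and 0.703 at 32 h. Of 5 leukocyte markers *Itgam*, *Cd68* and *Csf1r* were detected, and *Ptprc* and *Emr1*, which define these cells, were on no array. The summed leukocyte level was 21.9 in the control, 33.4 at 4 h, 12.2 at 20 h and 12.7 at 32 h, and its part in the results at 4 h was not tested. Of 5 endothelial markers *Kdr* and *Pecam1* were detected on every array, *Cdh5* on all but that at 32 h, and *Tek* and *Esam* on none. Their summed level was between 3.23 and 4.32, most of it from *Kdr* at 3.08 to 4.03. *Cdh5* was 3.65-fold higher at 4 h. Of 5 hepatocyte markers *Serpina1a* was detected on every array and *Alb* at 4 h and 20 h, with a summed level of at most 0.36. *Ttr*, *Apoa1* and *Fgb* were detected on no array. The part of these markers in the results was not tested.

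Of all genes with a ratio, 50.5% were above the control at 20 h and 49.4% at 32 h. The 19 enzymes of the synthesis chain were above it at both times without exception. Their median ratio was 2.38-fold at 20 h and 3.04-fold at 32 h, and 14 of them at 20 h and 16 at 32 h were at least 2-fold higher, against 1.46% and 2.24% of all genes with a ratio. *Tm7sf2*, a sterol reductase, had the largest ratio of all members, 8.28-fold at 32 h. At 4 h 12 of the 19 enzymes (63.2%) were above the control, a share like the 63.7% of all genes with a ratio, and *Pmvk*, *Ggps1*, *Fdft1* and *Nsdhl* among them turned with the scaling between arrays. Of the detected genes for transport, efflux and LXR, *Stard4* alone passed 2-fold.

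**Figure D1:**
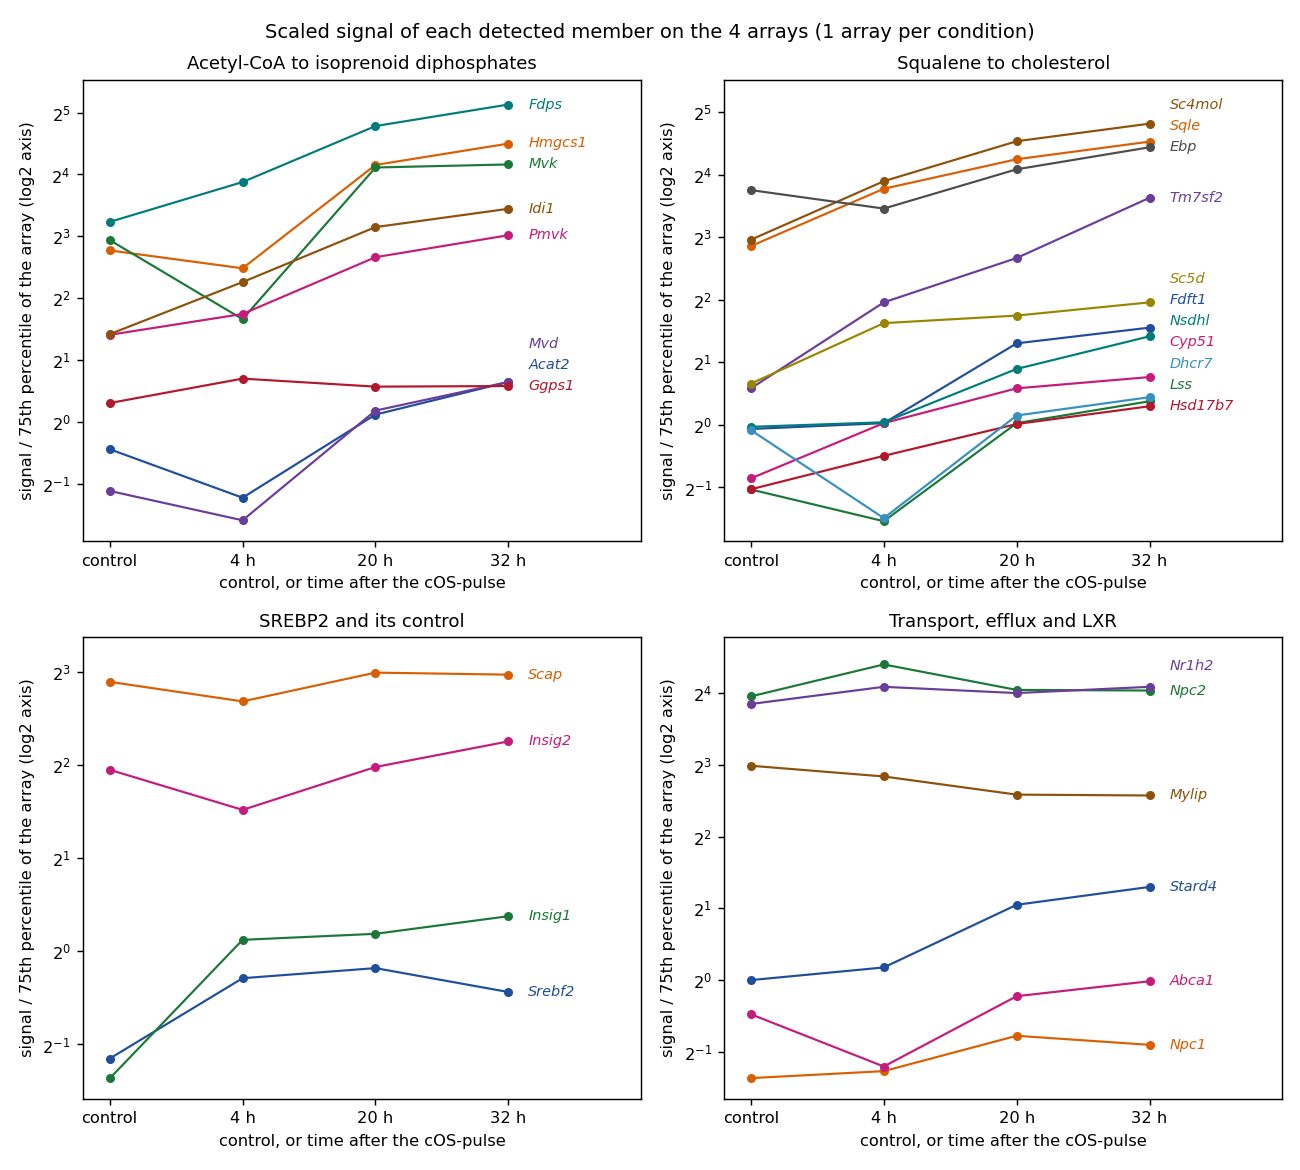
Level of each of the 29 detected members (signal divided by the 75th percentile of the array, log2 axis) for the control and the 3 times after the cOS-pulse, 1 array per condition, in 4 panels by role. Lines join the arrays of 1 gene and heights of different genes cannot be compared. Of the 19 synthesis enzymes in the upper panels, all but *Ggps1* were highest at 32 h.

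The sequences that SREBP2 and its partners are known to use can be looked for in front of these genes. RefSeq promoter windows (GRCm38.p6) of 300 bases, from 250 before the start to 50 after it, were at hand for 24 of the 30 members and for 27025 gene symbols in all. A sterol regulatory element written TCACNCCAC was found on either strand in 1 of the 24 members (4.17%), against 1.44% of all symbols. That member was *Hmgcs1*, whose match also fits the narrower form TCACCCCAC, found in 0.614% of all symbols. Here 4 promoters are printed, that of *Hmgcs1* for its element and, chosen after their values were seen, those of the 3 members with a single window that had the highest ratios at 32 h. Each runs 5′ to 3′ on the strand of its gene over the 250 bases before the start, and capitals mark the sterol regulatory element, CCAAT (the NF-Y motif) and GGGCGG (the GC box of Sp1) on either strand. The windows of *Hmgcs1* (chr13:119690101-119690350, plus strand), *Tm7sf2* (chr19:6067851-6068100, minus strand), *Idi1* (chr13:8885356-8885605, plus strand) and *Sc4mol* (chr8:64733579-64733828, minus strand) read:
Hmgcs1: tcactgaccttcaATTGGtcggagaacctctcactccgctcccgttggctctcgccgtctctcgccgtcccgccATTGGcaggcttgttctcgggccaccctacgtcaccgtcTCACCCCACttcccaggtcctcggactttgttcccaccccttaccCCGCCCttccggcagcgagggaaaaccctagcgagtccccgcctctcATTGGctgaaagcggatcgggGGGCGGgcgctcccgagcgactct
Tm7sf2: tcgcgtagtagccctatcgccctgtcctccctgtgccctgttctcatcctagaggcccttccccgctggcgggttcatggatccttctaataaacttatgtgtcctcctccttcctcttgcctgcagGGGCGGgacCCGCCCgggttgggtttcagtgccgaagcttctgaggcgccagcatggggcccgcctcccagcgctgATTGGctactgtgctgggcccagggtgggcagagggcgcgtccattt
Idi1: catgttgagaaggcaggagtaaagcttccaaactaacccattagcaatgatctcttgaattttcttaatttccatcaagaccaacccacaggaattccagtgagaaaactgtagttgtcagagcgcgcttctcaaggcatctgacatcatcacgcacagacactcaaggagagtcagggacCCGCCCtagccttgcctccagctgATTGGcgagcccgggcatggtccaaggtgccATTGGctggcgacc
Sc4mol: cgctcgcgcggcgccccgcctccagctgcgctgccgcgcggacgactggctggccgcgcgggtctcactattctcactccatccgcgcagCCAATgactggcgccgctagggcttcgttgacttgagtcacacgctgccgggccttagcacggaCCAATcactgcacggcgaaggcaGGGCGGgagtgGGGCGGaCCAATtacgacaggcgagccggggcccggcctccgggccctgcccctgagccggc

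The element of *Hmgcs1* began 137 bases before the start, and the 250 bases shown also held 3 CCAAT motifs and 2 GC boxes. The other 3 promoters held no sterol regulatory element of this spelling, but each had at least 1 CCAAT and 1 GC box. CCAAT occurred in 20 of the 24 member windows (83.3%), against 41.1% of all symbols and 43.3% of the 9479 symbols whose gene had a ratio at 32 h. Among the synthesis enzymes it occurred in 15 of 16 (93.8%). It was in 13 of the 14 members with a window that were at least 2-fold higher at 32 h and in 7 of the 10 others. The GC box occurred in 21 of the 24 (87.5%), against 38.2% of all symbols and 64.7% of those with a ratio at 32 h. A direct-repeat LXR element was in none of the member windows and in 0.0148% of all symbols. These are matches of letters in a short window, and nothing about binding was measured.

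**Figure D2:**
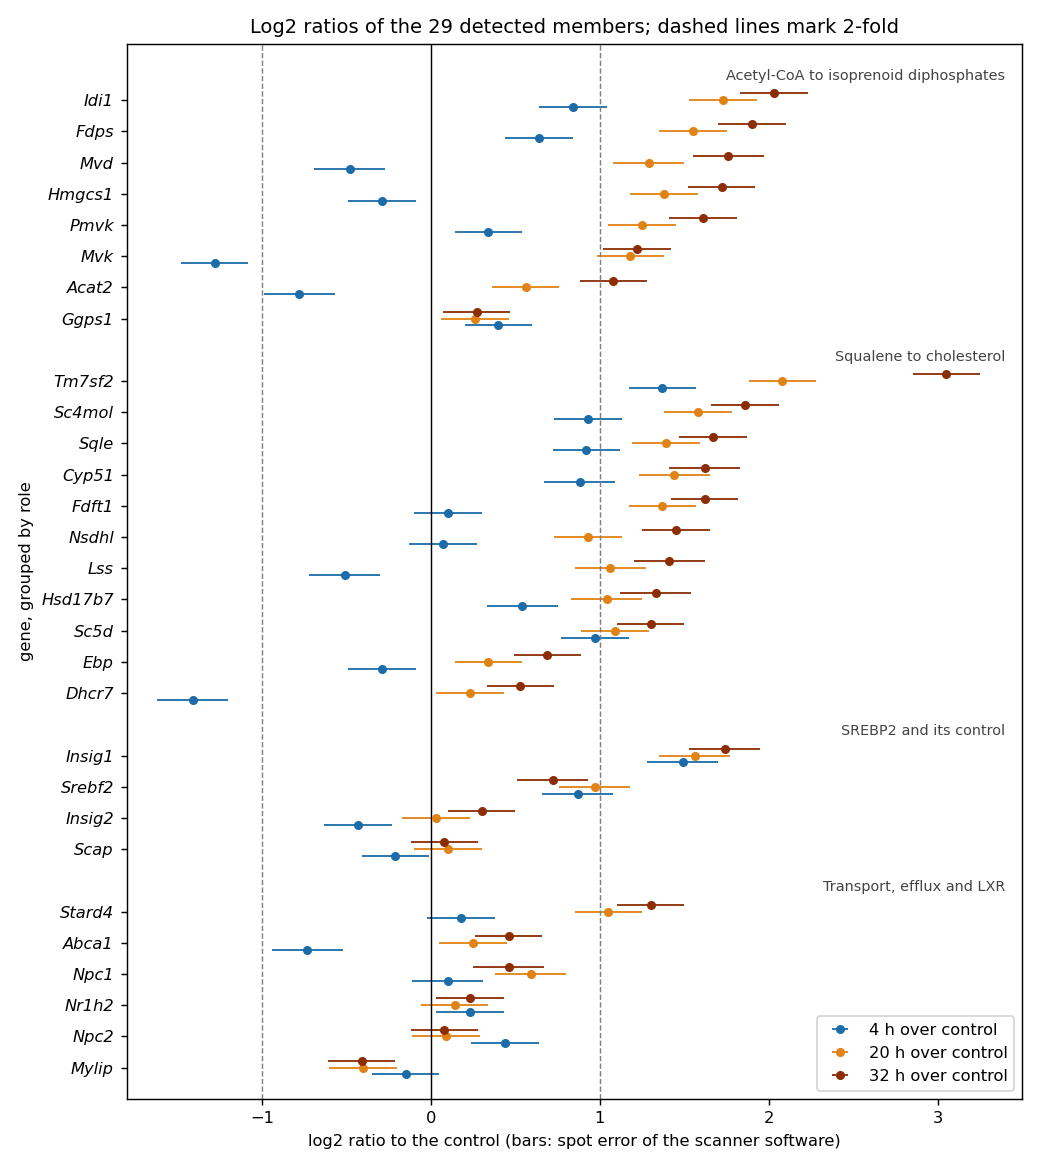
Log2 ratio to the control of each detected member at 4 h, 20 h and 32 h, grouped by role, with the spot error of the scanner software as bars and dashed lines at 2-fold. All 19 synthesis enzymes lie above 0 at 20 h and 32 h, and no member lies beyond the lower dashed line at those times.

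At 20 h after the cOS-pulse, 16 of the 29 members with a ratio (55.2%) exceeded the control at least 2-fold. Over all 16963 genes with a ratio 1.46% did. None of the members was at least 2-fold lower, against 3.56% of all genes. Among genes detected on both arrays, 0.729% were higher and 2.18% lower. At 32 h, 18 of the 29 (62.1%) were at least 2-fold higher, against 2.24% of 16894 genes. None was at least 2-fold lower, against 2.77%. For genes detected on both arrays these shares were 1.08% and 1.62%. The median log2 ratio of the members was 1.05 at 20 h and 1.30 at 32 h, while that of all genes was 0.0037 and -0.0045. The members made up 6.45% of the 248 genes that were higher at 20 h and 4.75% of the 379 at 32 h. Of the 29 members, 28 lay above the control at these times, against 50.5% of all genes at 20 h and 49.4% at 32 h. *Mylip* lay below the control. Within the spot error of the control were *Insig2*, *Npc2*, *Scap* and *Nr1h2* at 20 h, and *Scap* and *Npc2* at 32 h. No scaling between arrays that was tried turned the sign of a member at 20 h or 32 h.

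**Figure D3:**
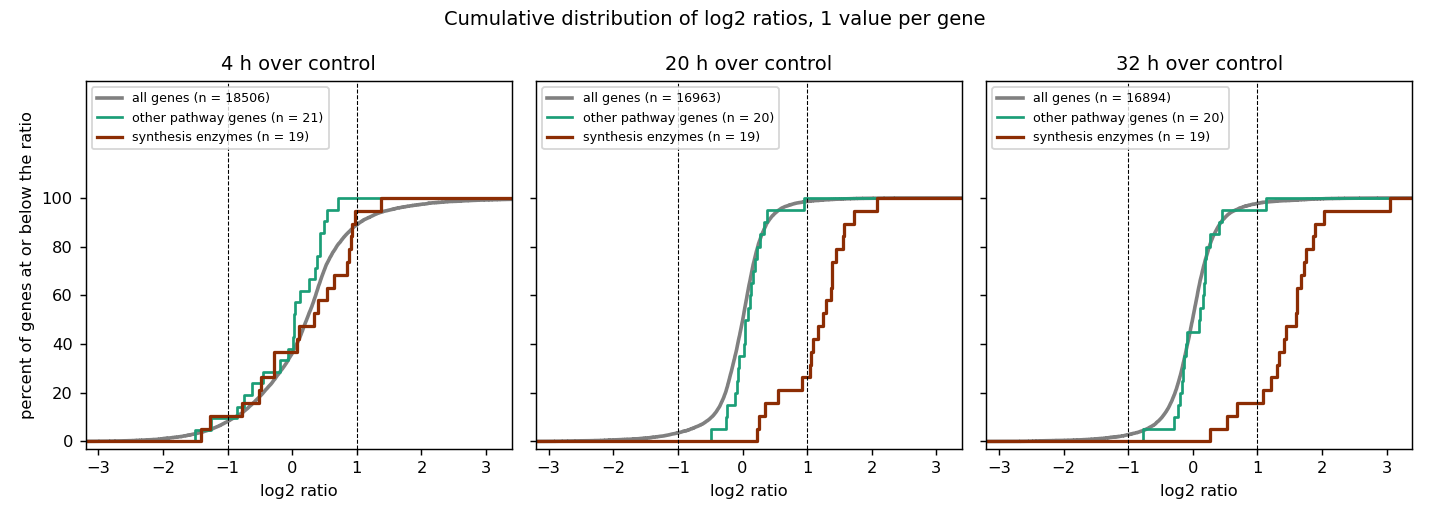
Cumulative share of genes (percent) at or below each log2 ratio to the control, for all genes, the 24 other genes of sterol and isoprenoid metabolism where they had a ratio, and the 19 synthesis enzymes, with dashed lines at 2-fold. The enzyme curve lies with that of all genes at 4 h and to the right of it at 20 h and 32 h, where its medians were 2.38-fold and 3.04-fold.

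The steps from acetyl-CoA to isoprenoid diphosphates were covered by 8 members, of which 6 at 20 h and 7 at 32 h were at least 2-fold higher. *Acat2*, the cytosolic thiolase that joins acetyl-CoA units, had a level of 0.740 in the control, 0.430 at 4 h, 1.09 at 20 h and 1.57 at 32 h. Its log2 ratio was 0.56 ± 0.20 at 20 h and 1.08 ± 0.20 at 32 h, so that it passed 2-fold at 32 h only. *Hmgcs1*, the HMG-CoA synthase with the sterol regulatory element shown above, had levels of 6.84, 5.60, 17.8 and 22.6 in the same order, a log2 ratio of 1.38 ± 0.20 at 20 h and 1.72 ± 0.20 at 32 h. Both genes were lowest at 4 h and highest at 32 h.

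The next enzymes act on mevalonate. *Mvk*, mevalonate kinase, had a level of 7.68 in the control, 3.17 at 4 h, 17.3 at 20 h and 17.9 at 32 h. Its log2 ratio of -1.28 ± 0.20 at 4 h was followed by 1.18 at 20 h and 1.22 at 32 h, and its other probe gave -1.46, 0.94 and 0.97, just under 2-fold at both later times. *Pmvk*, phosphomevalonate kinase, had levels of 2.66, 3.36, 6.34 and 8.11, and was 2.38-fold higher at 20 h and 3.04-fold higher at 32 h. *Mvd*, the decarboxylase that yields isopentenyl diphosphate, had levels of 0.464, 0.334, 1.14 and 1.57, and its log2 ratio was 1.29 ± 0.21 at 20 h and 1.76 ± 0.21 at 32 h.

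*Idi1*, the isomerase that makes the dimethylallyl form, had a level of 2.68 in the control, 4.80 at 4 h, 8.88 at 20 h and 10.9 at 32 h. At 3.31-fold and 4.07-fold, it ranked 46 from the top among all genes at 20 h and 53 at 32 h. *Fdps*, farnesyl diphosphate synthase, had levels of 9.41, 14.7, 27.5 and 35.0, and was 2.93-fold and 3.72-fold higher at the later times. *Ggps1* makes geranylgeranyl diphosphate, which is used for protein prenylation and leads away from sterols. Its levels were 1.24, 1.63, 1.49 and 1.5, within 1.32-fold of the control throughout. It was the one enzyme of this group below 2-fold at both later times, and the other 2 probes of the gene lay between 0.07 and 0.18 on the log2 scale at those times.

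The 11 enzymes from squalene to cholesterol had 8 members at least 2-fold higher at 20 h and 9 at 32 h. *Fdft1*, squalene synthase, had a level of 0.956 in the control, 1.02 at 4 h, 2.47 at 20 h and 2.94 at 32 h. *Sqle*, the epoxidase that is a slow step of the chain, had levels of 7.26, 13.7, 19.0 and 23.1. *Lss*, which closes the ring to lanosterol, had levels of 0.489, 0.344, 1.02 and 1.30. At 32 h their log2 ratios were 1.62 ± 0.20, 1.67 ± 0.20 and 1.41 ± 0.21, and at 4 h 0.10, 0.92 and -0.51. The 3 neighbouring steps were thus spread widely at 4 h and lay close together at 32 h. The array as a whole was also spread more widely at 4 h. There 11.1% of all genes were at least 2-fold higher and 8.26% lower, against 2.24% and 2.77% at 32 h.

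*Cyp51*, the lanosterol demethylase, had levels of 0.553, 1.02, 1.5 and 1.70 in the same order of arrays. *Tm7sf2*, the reductase that acts on the product of *Cyp51*, had levels of 1.5, 3.89, 6.36 and 12.4. Its log2 ratio was 1.37 ± 0.20 at 4 h, 2.08 ± 0.20 at 20 h and 3.05 ± 0.20 at 32 h. It ranked 20 from the top among all genes at 20 h and 5 at 32 h, and its other probe gave 1.08, 1.86 and 2.80. In RefSeq *Tm7sf2* overlaps *Vps51*, and 9 of the 30 members overlap another gene. Whether a probe lies in the shared stretch was not examined.

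Demethylation of the ring is carried further by *Sc4mol*, a methylsterol monooxygenase, *Nsdhl*, a sterol dehydrogenase, and *Hsd17b7*, a ketoreductase. *Sc4mol* had levels of 7.79, 14.9, 23.2 and 28.2, and was 2.98-fold higher at 20 h and 3.63-fold higher at 32 h. *Nsdhl* had levels of 0.979, 1.03, 1.86 and 2.67, with a ratio of 1.90-fold at 20 h and 2.73-fold at 32 h. *Hsd17b7* had levels of 0.490, 0.710, 1.01 and 1.23. Its 3 probes did not give the same size of ratio. The brightest had 1.04 at 20 h and 1.33 at 32 h on the log2 scale, another 1.19 and 1.42, and the last 0.21 and 0.47, below 2-fold.

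Among the closing steps were *Ebp* and *Dhcr7*, which after *Ggps1* had the smallest ratios of the chain at 32 h. *Ebp*, a sterol isomerase, had levels of 13.5, 11, 17 and 21.7, and its log2 ratio reached 0.69 ± 0.20 at 32 h. *Sc5d*, a sterol desaturase, had levels of 1.58, 3.09, 3.36 and 3.89, with ratios of 1.96-fold, 2.13-fold and 2.47-fold. That it was close to 2-fold from 4 h on depended on the scaling. Its log2 ratios at 4 h and 32 h were 0.61 and 1.33 with median scaling, and 0.57 and 1.46 with spike-in scaling. *Dhcr7*, the reductase of the last step, had levels of 0.944, 0.356, 1.11 and 1.36. Its log2 ratio of -1.41 ± 0.21 at 4 h was below that at 32 h, 0.53 ± 0.20. *Ggps1*, *Ebp* and *Dhcr7* were the 3 enzymes that did not reach 2-fold at 32 h.

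Of the 4 genes of SREBP2 and its control, *Insig1* alone passed 2-fold. This gene is a known target of SREBP2 as well as a brake on it. Its levels were 0.388 in the control, 1.09 at 4 h, 1.14 at 20 h and 1.30 at 32 h, and its log2 ratios were 1.49 ± 0.21, 1.56 ± 0.21 and 1.74 ± 0.21. At the scaling used it was already near its highest level at 4 h, but this depended on the scaling. Its log2 ratios at 4 h and 32 h were 1.13 and 1.77 with median scaling, and 1.09 and 1.9 with spike-in scaling. *Insig2*, its relative, which is not known as a strong SREBP2 target, had levels of 3.87, 2.87, 3.95 and 4.78 and lay within 1.23-fold of the control at the later times.

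*Srebf2*, the gene of SREBP2 itself, had levels of 0.450, 0.819, 0.883 and 0.739. Its log2 ratios were 0.87 ± 0.21 at 4 h, 0.97 ± 0.21 at 20 h and 0.72 ± 0.21 at 32 h, all under 2-fold, while its other probe gave 1.25, 0.79 and 0.84. With median, spike-in or no scaling, *Srebf2* and the enzyme *Nsdhl* also passed 2-fold at 20 h. The ratio of *Srebf2* was highest at 20 h on the first of these probes and at 4 h on the other. *Scap* had levels of 7.45, 6.44, 7.98 and 7.86, with ratios between 0.864-fold and 1.07-fold. RNA levels say nothing of how much SREBP2 protein was cleaved, which the arrays do not measure.

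Of the 6 detected genes for transport, efflux and LXR, 1 was at least 2-fold higher at 20 h and at 32 h. This was *Stard4*, a carrier of cholesterol between membranes and a known SREBP2 target, with levels of 1.0, 1.13, 2.07 and 2.46. Its log2 ratio was 1.05 ± 0.20 at 20 h and 1.30 ± 0.20 at 32 h, and its other probe gave 1.15 and 1.34. At 4 h the probes differed, with 0.18 for the brightest and 0.92 for the other.

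*Npc1* and *Npc2* pass cholesterol out of lysosomes. *Npc1* had levels of 0.388, 0.415, 0.584 and 0.535, which is 1.5-fold above the control at 20 h, and *Npc2* had 15.5, 21.1, 16.5 and 16.4. *Abca1*, the LXR-induced pump for efflux, had levels of 0.719, 0.434, 0.856 and 0.989, below the control at 4 h and 1.38-fold above it at 32 h. *Nr1h2*, which encodes LXR-beta, had 14.4, 17, 16 and 17. *Mylip*, a ubiquitin ligase induced by LXR, had 7.93, 7.15, 6.0 and 5.95 and was the one member lower than the control at all 3 times. Its log2 ratio was -0.15 ± 0.20 at 4 h, within the spot error, and -0.41 ± 0.20 at 32 h. None of these 5 genes passed 2-fold at the scaling used, and *Abcg1*, another efflux transporter, has no ratio.

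At 4 h, 2 of the 29 members (6.9%) were at least 2-fold higher, against 11.1% of 18506 genes with a ratio. Another 2 (6.9%) were at least 2-fold lower, against 8.26%. Among genes detected on both arrays, as these members were, the shares were 8.25% and 8.14%. The higher genes were *Insig1* and *Tm7sf2* and the lower ones *Mvk* and *Dhcr7*. With median, spike-in or no scaling *Acat2* and *Abca1* were also 2-fold lower, and with spike-in scaling *Tm7sf2* did not reach 2-fold. The median log2 ratio of the members was 0.18 and that of all genes 0.22, so the members as a list stood where the array as a whole did. This shift of all genes depends on the scaling and lay between -0.18 and 0.22. The signs of *Pmvk*, *Ggps1*, *Fdft1*, *Nsdhl*, *Stard4*, *Npc1* and *Nr1h2* turned under at least 1 of the 5 other scalings and those of the other 22 members did not. The 7 enzymes below the control, *Acat2*, *Hmgcs1*, *Mvk*, *Mvd*, *Lss*, *Ebp* and *Dhcr7*, kept their sign under all of them.

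**Figure D4:**
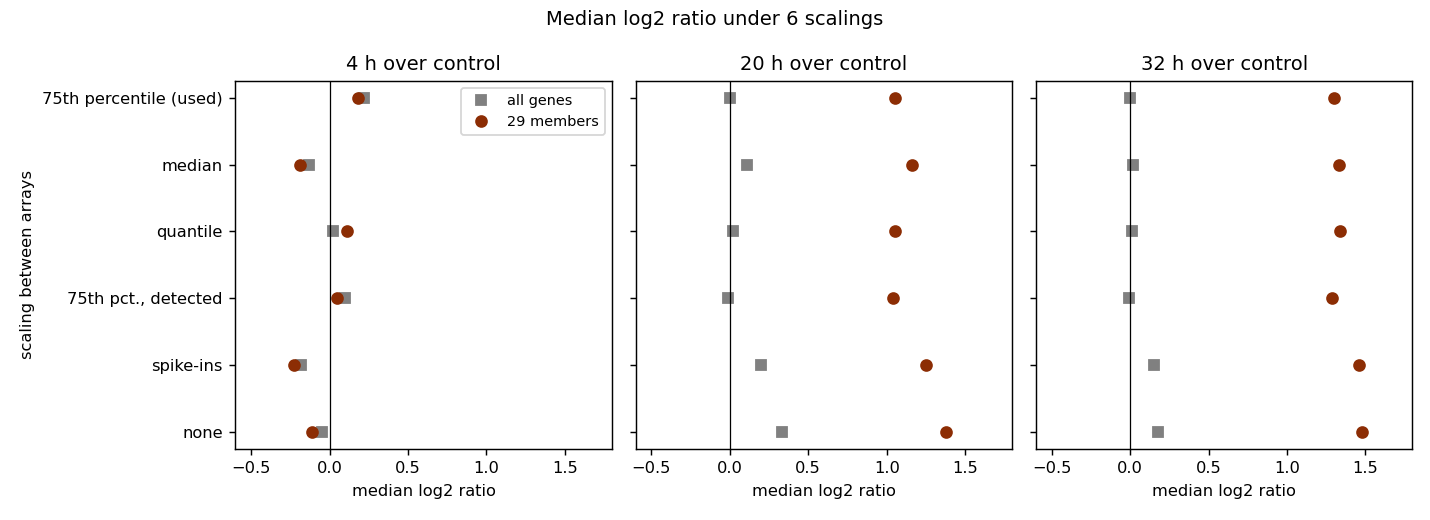
Median log2 ratio to the control of the 29 members (circles) and of all genes (squares) at 4 h, 20 h and 32 h under 6 ways of scaling the arrays to each other. At 4 h both medians move across 0 together, and at 20 h and 32 h the members stay between 1.03 and 1.32 above all genes.

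The order of the arrays was described for the 15274 genes detected on all 4. All 19 synthesis enzymes were higher at 32 h than at 20 h, as were 48.1% of all genes, and 18 of the 19 were highest of all at 32 h, against 16.4%. Without scaling, 17 of the 19 were higher at 32 h than at 20 h, against 14.6% of all genes. The difference between the later arrays was small. No member differed 2-fold between 20 h and 32 h, where 0.947% of 16791 genes were higher at 20 h and 2.11% higher at 32 h. For genes detected on both arrays these shares were 0.16% and 0.454%. The median log2 ratio of 20 h over 32 h was -0.28 for the members and 0.0074 for all genes. *Tm7sf2* came nearest to 2-fold with -0.97 ± 0.20, followed by *Acat2* with -0.53 and *Nsdhl* with -0.52. For *Mvk* and *Ggps1* the sign of this small difference turned with the scaling, and for the other 17 enzymes it did not. From the control through 4 h and 20 h to 32 h, the level went up at each step for 11 of the 19 enzymes, against 3.17% of all genes. With median or spike-in scaling it did so for 8 of the 19, against 1.78% and 3.42%. These 4 arrays differ in treatment and in time and are not a time course of 1 culture.

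Different probes of a gene offer a check that the brightest one did not set the result, though they were read from the same 4 hybridizations. 10 members had at least 2 detected probes, 22 in all. *Hmgcs1* and *Fdft1* each had a second probe that was detected on no array, so these enzymes could not be checked in this way. The sign of the ratio to the control was the same for every probe of a gene in 10 of 10 genes at 20 h and at 32 h. At 4 h it was the same in 9 of 10, and *Nsdhl* had 0.07 and -0.22. For 20 h over 32 h it was the same in 7 of 10, and probes of *Ggps1*, *Mylip* and *Srebf2* differed in sign. The median range between probes of a gene was 0.23 on the log2 scale at 4 h, 0.13 at 20 h and 0.11 at 32 h. The widest was 0.98 for *Hsd17b7* at 20 h.

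**Figure D5:**
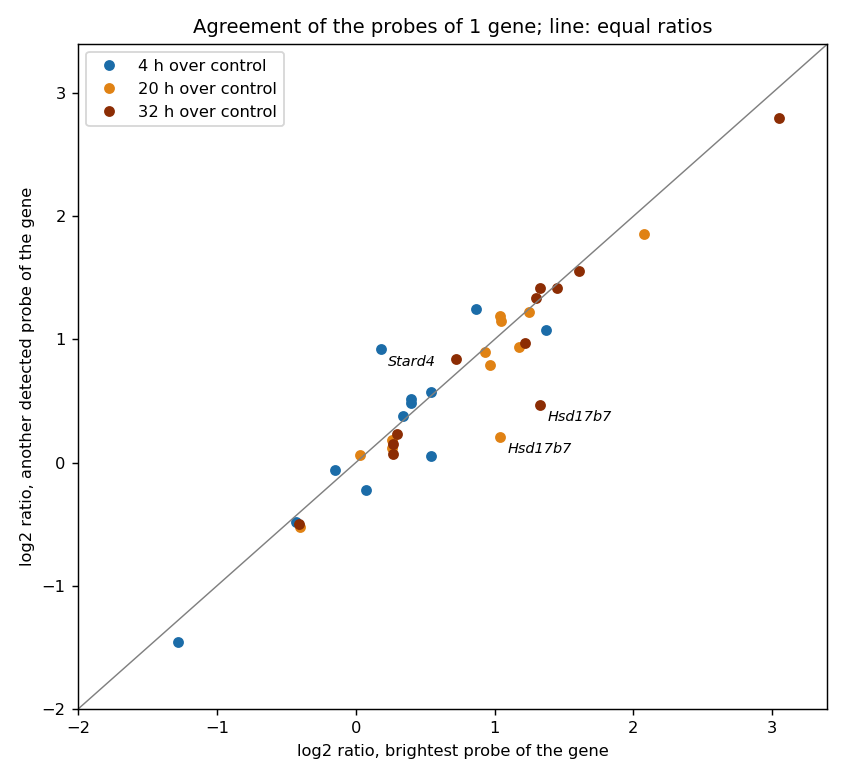
Log2 ratio to the control from the brightest probe of a gene (x axis) against that from each other detected probe of the same gene (y axis) at 4 h, 20 h and 32 h, for the 10 members with several detected probes. The line marks equal ratios, and the points named lie more than 0.5 from it, *Stard4* at 4 h and 1 probe of *Hsd17b7* at 20 h and 32 h.

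A further 24 genes of sterol and isoprenoid metabolism that are not on the list were read in the same way. They include the proteases that cleave SREBPs, the gene of SREBP1, sterol esterification and oxysterol enzymes and the prenyltransferases. The oxysterol enzymes *Cyp27a1*, *Ch25h* and *Cyp7b1* were detected on no array and have no ratio. *Nr1h3* has none at 20 h and 32 h. At 20 h none of the 20 with a ratio was 2-fold higher or lower, and their median log2 ratio was 0.062. At 32 h only *Scarb1*, a receptor for high-density lipoprotein, was higher, with a log2 ratio of 1.14 after 0.95 at 20 h, and none was lower. At 4 h none of 21 was higher, and *Dhdds*, which acts in dolichol synthesis, and *Erlin2*, which acts in the turnover of sterol-regulated proteins, were lower with -1.51 and -1.25. Their median log2 ratio was 0.029 at 4 h, 0.062 at 20 h and 0.10 at 32 h. That of the synthesis enzymes was 0.34 at 4 h, 1.2 at 20 h and 1.6 at 32 h.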

How the data were processed

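The authors deposited 1 file of scanner intensities per array (Agilent Feature Extraction 10.7.3.1), background-subtracted, and a table that differs from these intensities by 1 factor per array. The intensities were averaged as log2 over the spots of a probe without outlier flag (125 to 161 spots flagged per array), and each array was then centred on its 75th percentile. Detection required a share of 50% or more of the spots of a probe to be well above background, and where 1 array of a pair detected it the ratio was a bound. The annotation of the array uses mm9, and promoters came from RefSeq (GRCm38.p6).

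The members and gene lists were chosen with earlier results of these data known. Every member is named, and other pathway genes are named with values only where they passed 2-fold. SAM (two-class paired), named in the study's methods, needs replicates and was not run. Alternatives were 5 scalings, normexp (offset 50, limma 3.58.1, R 4.3.3), 3 detection rules, flagged spots kept, 1.5-fold and 3-fold as thresholds, the median of a gene's probes and the deposited table. Spike-in scaling without 1 probe was added after the data were seen. The steps were tested on simulated data. Python 3.11.15, numpy 2.4.6 and pandas 2.3.3 were used.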

Additional observations from a re-analysis of the deposited data

Results flagged for a closer look

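For 10 of the 29 members (34.5%) the array at 4 h lay below the control and both later arrays above it, against 18.0% of the 15274 genes detected on all arrays. With spike-in scaling these shares were 58.6% and 45.1%. At 4 h alone, 37.9% of the members lay below the control, against 39.8% of all these genes. The members were thus like the array at 4 h and stood out at the later times only. In 8 of the 10 members below the control at 4 h and above it later, each of the 3 ratios was larger than its spot error. That contrast between times was not tested, since there was 1 array per condition. These 8 were picked by that pattern, so a log2 ratio of 32 h over 4 h above 0 followed from the choice. That ratio was 2.49 for *Mvk*, 2.23 for *Mvd*, 2.01 for *Hmgcs1* and 1.93 for *Dhcr7*. It was 1.92 for *Lss*, 1.87 for *Acat2*, 1.19 for *Abca1* and 0.98 for *Ebp*. All but *Abca1* are synthesis enzymes, which make up 19 of the 29 members. The array at 4 h lay below the control and both later arrays above it in 7 of the 19 enzymes (36.8%). This share is close to the 34.5% of all members.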

How the results depend on the processing

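No paired analysis was possible because each condition had 1 array and the replicate numbers pair nothing. The number of members at least 2-fold higher, 16 at 20 h and 18 at 32 h, moved most with the threshold: at 3-fold it was 2 and 11. With normexp it was 13 and 17, and *Lss*, *Hsd17b7* and *Stard4* had log2 ratios of 0.94, 0.99 and 0.99 at 20 h. With the median over probes *Srebf2* reached 1.06 at 4 h. The median log2 ratio at 20 h was 1.4 without scaling. At 4 h the median of the members, 0.18, was -0.19 with median scaling, -0.23 with spike-in scaling, -0.22 with spike-in scaling without 1 probe and -0.11 without scaling. The number higher at 4 h, 2, was 1 with either spike-in scaling, 9 at 1.5-fold and 0 at 3-fold. The number lower at 4 h, 2, was 4 with median scaling, either spike-in scaling, no scaling and 1.5-fold, and 0 at 3-fold. Between 20 h and 32 h, 1 member, *Tm7sf2*, was higher at 32 h at 1.5-fold. The cause was not tested. The other 162 values of counts and medians moved little. Over all genes, the share of higher among those past 2-fold was 57.3% at 4 h, 29.1% at 20 h and 44.7% at 32 h, and between 26.0% and 46.4% at 4 h under the 5 other scalings. Without scaling it was 64.2% at 20 h and 62.9% at 32 h. Every member but *Abcg1* was well above background on all arrays.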
